A study of Mus musculus with 4 samples.

Results

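The 37 genes described here encode the machinery that takes a mammalian cell from G1 into S phase and copies its DNA. They were taken by symbol from a deposited expression table of 21523 genes, and all 37 were found in it. They comprise 5 G1/S cyclins, 3 cyclin-dependent kinases, the inhibitor Cdkn1b, 2 E2F factors with Rb1, 3 origin licensing factors, the 6 MCM helicase subunits, 3 helicase activation factors, 4 polymerase and primase genes, 3 clamp and clamp loader genes, 4 nucleotide synthesis genes and 2 genes of Okazaki fragment maturation. Poly(A) RNA was sequenced from RAW264.7 cells, a mouse macrophage-like tumour line transformed by a leukaemia virus. All cultures were kept in DMEM with fetal bovine serum and antibiotics. Of the 4 libraries, 2 came from untreated control cells and 2 from cells exposed to 0.5 mM 1,5-anhydroglucitol (1,5-AG, glucose without its anomeric hydroxyl group) for 24 h. The model is a single established line, and nothing in the labels says that the libraries of a group were separate cultures, so the spread behind each p-value may be technical. The comparison asks whether the replication programme of these cells differs under 1,5-AG.

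In the textbook scheme, D-type cyclins pair with Cdk4 or Cdk6 and phosphorylate the retinoblastoma protein, which releases E2F factors. E2F drives transcription of cyclin E, of licensing and fork proteins and of the enzymes that make deoxynucleotides. The origin recognition complex, Cdc6 and Cdt1 load the MCM ring on DNA in G1, and Cdc45 and the GINS complex convert it to an active helicase in S phase. Cyclin D1 was identified in mouse macrophages as a gene that responds to the growth factor CSF-1, and most tissue macrophages divide rarely, unlike this line.

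Library size in the FPKM scaling, as recovered from the table, ranged from 14616556 to 16228673 fragments. It nearly equals the fragments assigned to genes (15163807 against 15152187 in control 1), so the full sequencing depth is not known. The macrophage markers Lyz2, Cd68, Csf1r, Adgre1, Itgam and Ptprc summed to 5227 to 5354 FPKM (fragments scaled to exon length and library size) in control and to 3760 to 3843 FPKM with 1,5-AG. Lyz2, the lysozyme gene, made up most of these sums and fell (log2 fold change -0.56, adjusted p = 0.0169 by limma). Adgre1 (-0.32), Ptprc (-0.21) and Csf1r (-0.11) were lower in both treated libraries and passed limma's voom on recovered fragment counts (adjusted p = 0.00598, 0.00496 and 0.0215) but not limma on log2(FPKM + 1) (adjusted p = 0.139, 0.188 and 0.169). Cd68 had -0.07 and Itgam 0.04. Of 15 listed markers of T cells, B cells, neutrophils, fibroblasts and epithelium, 7 were analysed here and summed to at most 1.37 FPKM per cell type in any library, with those of fibroblasts and epithelium at or near 0. The part of the macrophage marker difference in the results below was not tested.

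Replication genes passed the thresholds about as often as tested genes in general. With limma on log2(FPKM + 1), 0 of 36 tested members passed an adjusted p of 0.05, in a comparison in which 1.46% of 11120 genes passed. Ccnd2 was too weakly expressed to be tested. At an unadjusted p under 0.05 there were 7 members, 5 higher (Ccnd1, Gins1, Rfc4, Cdc6 and Cdc45) and 2 lower with 1,5-AG (Rb1 and E2f2), against 18.2% of all tested genes (9.15% higher and 9.04% lower). With limma's voom on fragment counts recovered from the FPKM values, 3 members passed, with Ccnd1 and Cdc6 higher and Rb1 lower, where 8.29% of tested genes passed (3.65% higher and 4.64% lower).

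The log2 fold changes of the 36 members ran from -0.33 for Rb1 to 0.30 for Ccnd1 with a median of 0.03, 22 positive and 14 negative, beside a median of -0.0025 over all tested genes. The sign of that member median depended on scaling, as quantile normalization gave -0.0022, with 17 positive and 19 negative. The 95% interval of the difference lay within a 1.25-fold change in either direction for 30 of 36 members. Over all tested genes 62.2% had an interval that narrow. The members were more abundant than the average gene, with a median of the mean levels of 20 FPKM against 8.89 FPKM. The members with wider or shifted intervals were Ccnd1, Rb1, Orc1, Cdc6, Cdt1 and Fen1. In bulk RNA a different share of cells in S phase and a different amount of RNA per cell cannot be told apart.

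**Figure D1:**
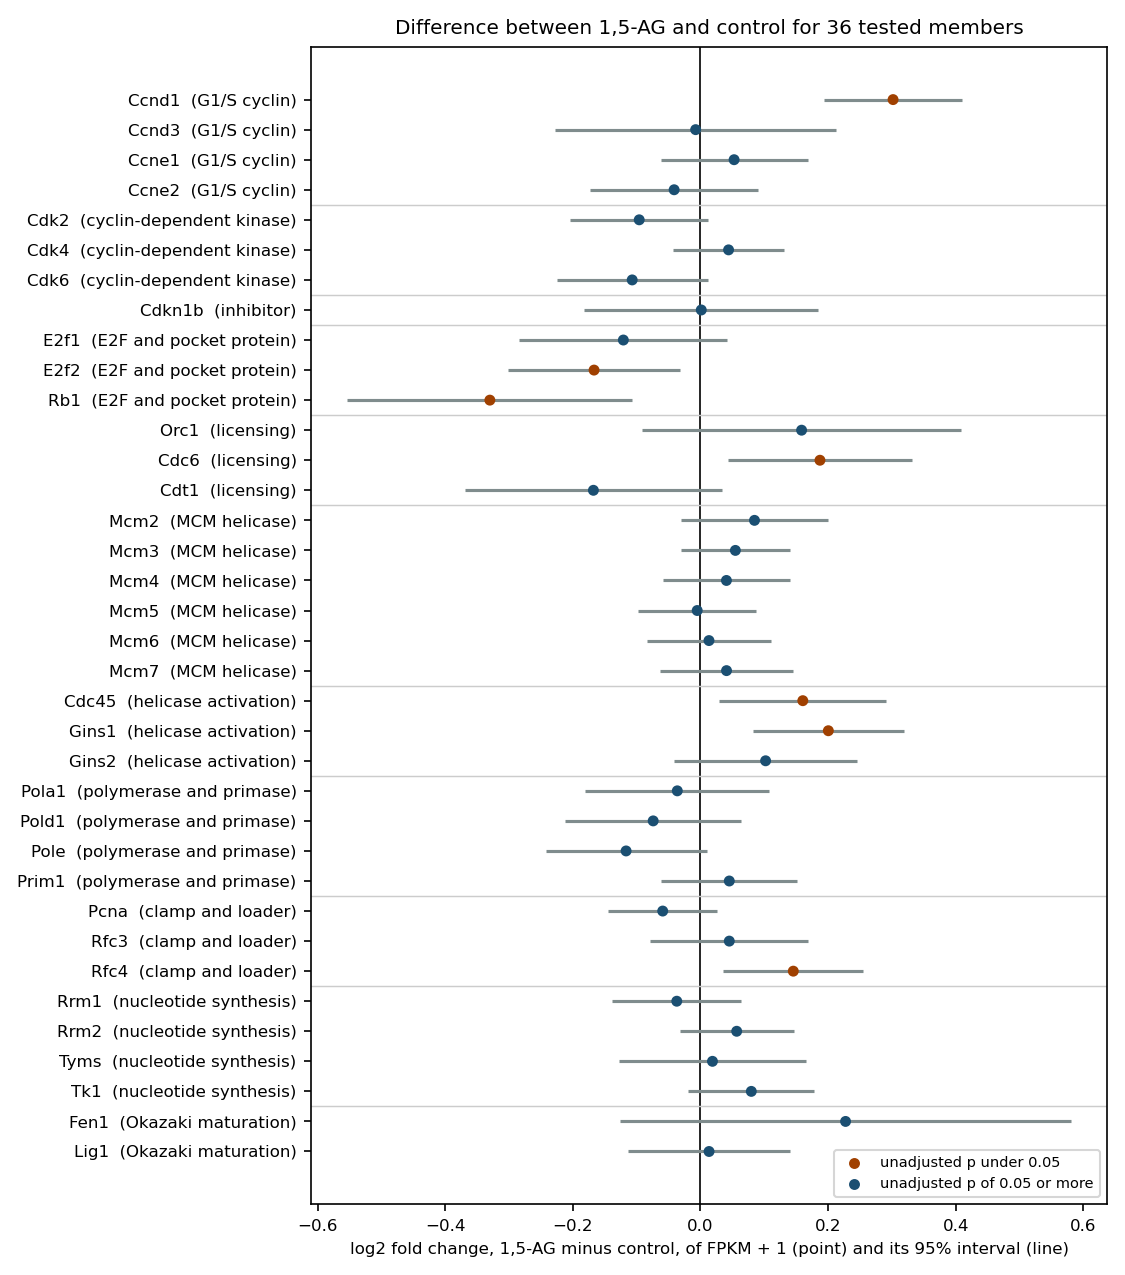
Log2 fold change of FPKM + 1 (1,5-AG minus control, horizontal axis) for the 36 tested members, grouped by role; points are limma estimates and lines their 95% intervals. Most points lie within 0.1 of zero, with Ccnd1 at 0.30 and Rb1 at -0.33 at the ends.

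For 27 of 36 members the groups did not overlap, with the treated pair higher in 17 and lower in 10. Among all tested genes 49.6% were separated in this way, 24.2% higher and 25.4% lower. With 2 libraries a group, no permutation of the libraries can give a two-sided p below 0.33, so the separation of a single gene is a description.

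FPKM levels of the members spanned more than 3 orders of magnitude. FPKM was scaled by the merged exon length of each gene, so comparisons of level between genes depend on that length. Pcna, the sliding clamp that holds polymerases on DNA, was the most abundant at 212 FPKM, a level above that of 98.2% of tested genes. Cdk4 (132 FPKM), Mcm3 (111 FPKM) and Mcm5 (107 FPKM) followed. The least abundant were Ccnd2 (0.109 FPKM), Fen1 (3.09 FPKM), Orc1 (5.70 FPKM) and Rb1 (5.92 FPKM).

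**Figure D2:**
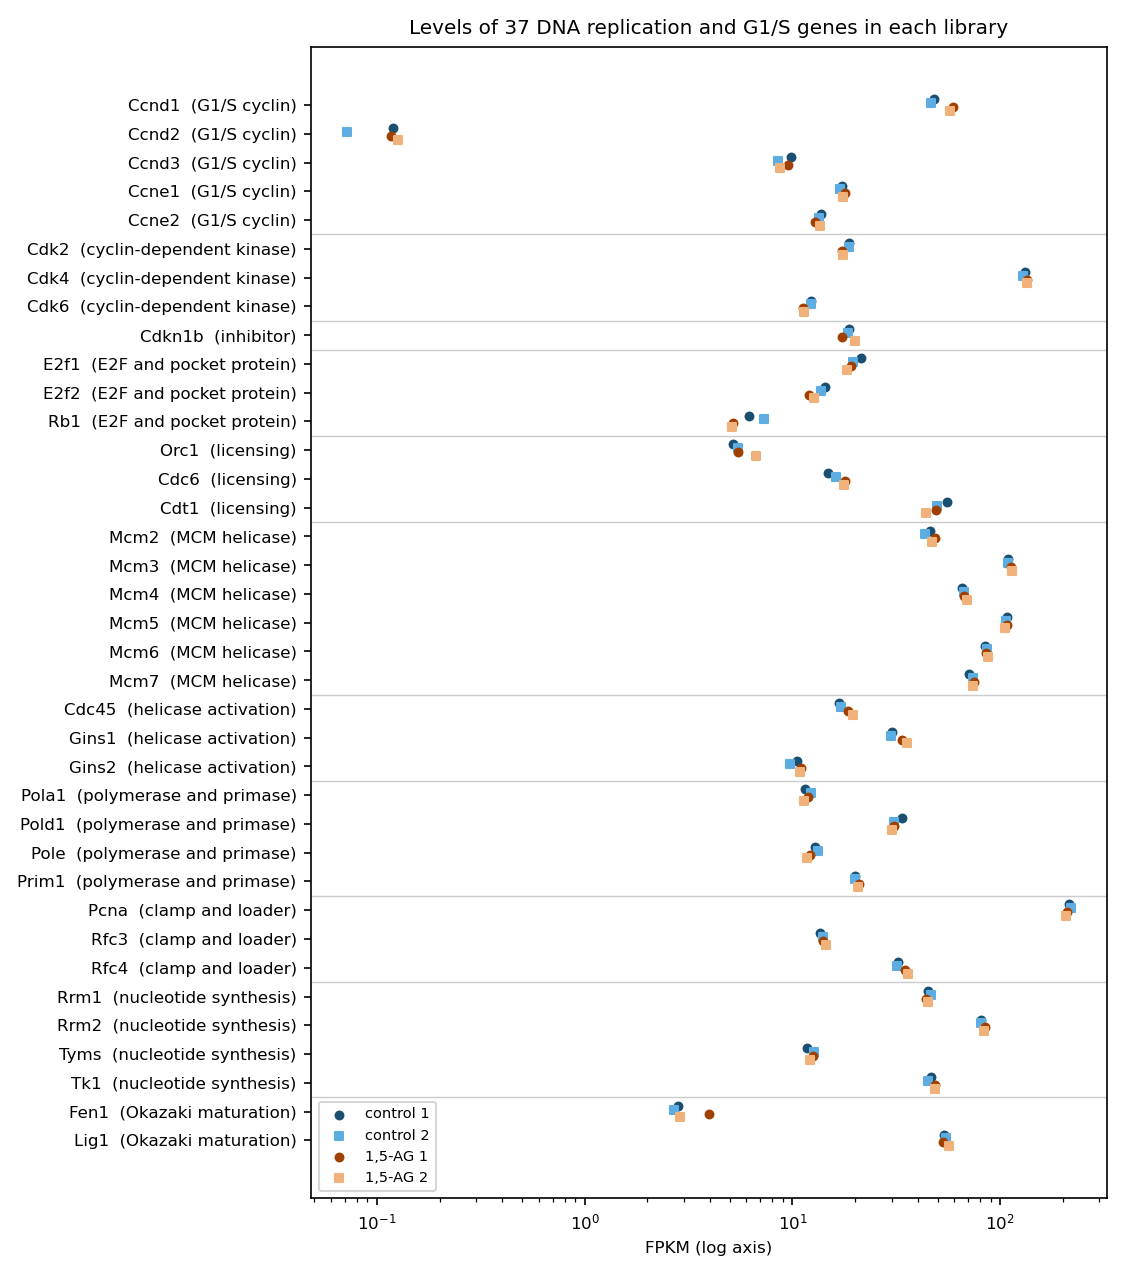
FPKM (log axis) of all 37 genes in each of the 4 libraries, grouped by role, with circles and squares for libraries 1 and 2 of a group. Differences between genes, from 0.109 FPKM for Ccnd2 to 212 FPKM for Pcna, exceed those between groups.

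Ccnd1, which encodes cyclin D1, was the member with the smallest p. It measured 48.2 and 46.4 FPKM in control and 59.6 and 57.6 FPKM with 1,5-AG. Both treated libraries lay above both controls, and the mean went from 47.3 ± 1.28 to 58.6 ± 1.38 FPKM (SD, n = 2 per group), a ratio of 1.24. The log2 fold change was 0.30 (SE 0.04, 95% interval 0.19 to 0.41), with a limma adjusted p of 0.0504, just outside the threshold. It passed under voom (adjusted p = 8.42e-05). By limma it passed among genes with a mean of at least 5 FPKM (adjusted p = 0.0211, where 4.8% of genes passed). It also passed limma among protein coding genes alone (adjusted p = 0.0104, 4.36%) and with the replicate number as a block (adjusted p = 0.0352, 2.79%). Limma did not call it without a filter (adjusted p = 0.137) or without the variance trend (0.136). Nor did it with quantile normalization (0.0640), median-ratio scaling (0.0541) or a pseudocount of 0.1 (0.0510). With 1 library left out the adjusted p was 0.130 to 0.214 and the log2 fold change 0.27 to 0.33. The gene lies on chromosome 7 (144929931 to 144939925, minus strand, mm10), and 23.4% of its exon bases are also exon of LTO1 on the other strand.

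Of the remaining D-type cyclins only Ccnd3 was abundant enough to be tested. Ccnd3, the cyclin D3 gene, read 9.86 and 8.48 FPKM in control and 9.49 and 8.72 FPKM with 1,5-AG, so the groups overlapped (log2 fold change -0.0075, 95% interval -0.23 to 0.21). Ccnd2, the cyclin D2 gene, had 17 and 11 fragments in the untreated libraries against 16 and 18 in the treated ones, few but above the floor of 3 fragments. Its mean FPKM in treated over control libraries gave a ratio of 1.27, with overlapping fragment counts and no test. Of the summed FPKM of these cyclins, Ccnd1 made up 82.9% and 84.4% without and 86.1% and 86.7% with 1,5-AG. The size of this share depends on merged exon lengths of 4709 bases for Ccnd1 and 8775 for Ccnd3. In control 1 they had 3445 and 1312 fragments. The share was higher in both treated libraries by 2.75 percentage points on average (exact permutation p = 0.33, two-sided, the smallest that 2 against 2 libraries allow). The level of Ccnd1 relative to Cdk4, its kinase partner, was 0.367 and 0.361 in control and 0.444 and 0.429 with 1,5-AG, again without overlap.

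The E-type cyclins, which activate Cdk2 at the G1/S boundary, stayed close to their control values. Ccne1 had a log2 fold change of 0.05 (95% interval -0.06 to 0.17) at 17.4 FPKM, and Ccne2 one of -0.04 (-0.17 to 0.09) at 13.4 FPKM. Of the kinases, Cdk4 measured 131.5 and 128.7 FPKM in control and 134.1 and 134.2 FPKM with 1,5-AG (log2 fold change 0.04, adjusted p = 0.559 by limma). The Cdk4 sign turned under quantile normalization, to -0.018. Cdk2 (18.7 and 18.7 FPKM against 17.4 and 17.5) and Cdk6 (12.3 and 12.3 FPKM against 11.2 and 11.4) were lower in both treated libraries, by small amounts. Their log2 fold changes were -0.10 and -0.11, with limma adjusted p-values of 0.323 and 0.315.

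Cdkn1b encodes p27, which inhibits cyclin E with Cdk2. It measured 18.6 and 18.6 FPKM in control and 17.4 and 19.9 FPKM with 1,5-AG. The treated libraries lay on either side of the controls, and the log2 fold change was 0.0013 (95% interval -0.18 to 0.18).

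Rb1, the retinoblastoma gene, was the member with the most negative value. It read 6.15 and 7.28 FPKM in control and 5.15 and 5.09 FPKM with 1,5-AG, from 561, 711, 453 and 463 fragments. Both treated libraries lay below both controls, although the control libraries differed from each other by more than the nearer of them differed from the treated ones. The log2 fold change was -0.33 (SE 0.09, 95% interval -0.55 to -0.11), with an adjusted p of 0.152 by limma and of 0.00885 by voom. It ranged from -0.44 to -0.22 with 1 library left out. The gene spans 73183673 to 73325822 on chromosome 14 (minus strand, mm10), and 14.9% of its exon bases are shared with Rcbtb2 and Lpar6 on the opposite strand.

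The E2F members E2f1 and E2f2 were also lower in both treated libraries. E2f2 had 14.3 and 13.7 FPKM in control and 12.04 and 12.7 FPKM with 1,5-AG (log2 fold change -0.17, 95% interval -0.30 to -0.03, adjusted p = 0.202 by limma). E2f1 had 21.5 and 19.5 FPKM against 19.2 and 18.2 FPKM (-0.12, -0.28 to 0.04, adjusted p = 0.401 by limma), with its groups barely apart and a range of -0.19 to -0.05 with 1 library left out. The further genes E2f3 to E2f8 had log2 fold changes between -0.06 and 0.12. Among them E2f3 had 0.0010 and E2f4 0.02, both with overlapping groups.

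**Figure D3:**
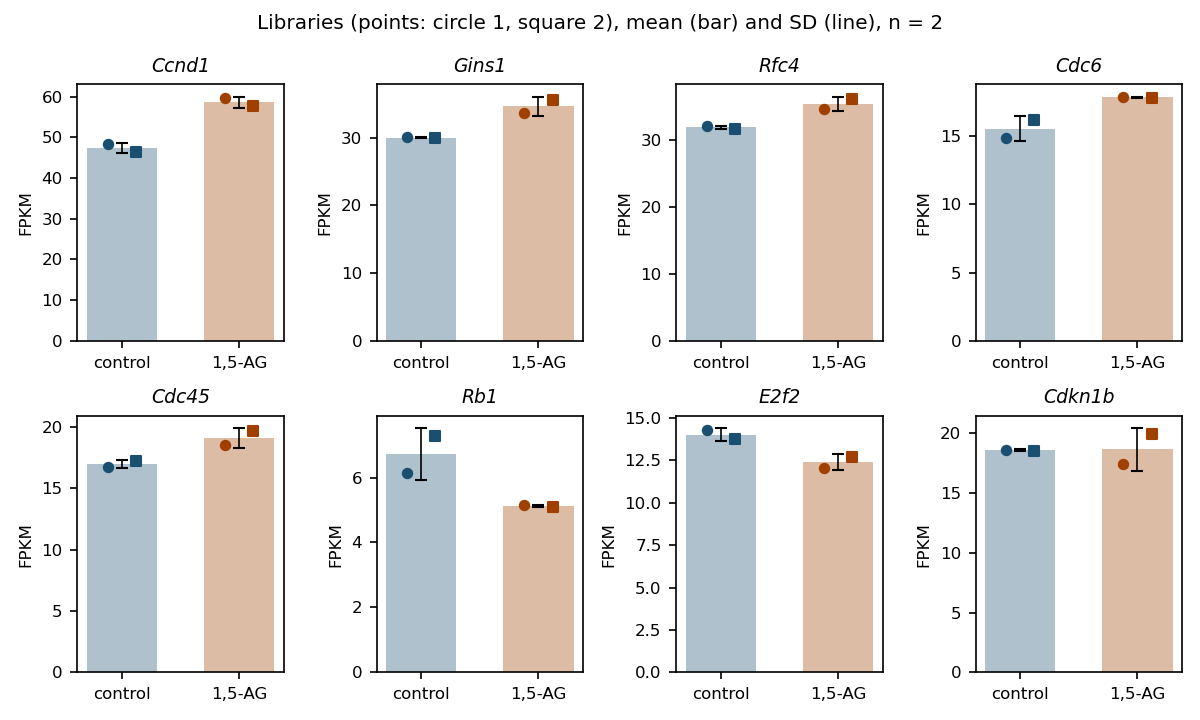
FPKM of the 7 members with an unadjusted p under 0.05 and of Cdkn1b, with a point for each library, bars for the mean of 2 and lines for the SD. Ccnd1, Gins1, Rfc4, Cdc6 and Cdc45 are higher and Rb1 and E2f2 lower in both 1,5-AG libraries, while Cdkn1b overlaps.

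Licensing factors differed in direction. Cdc6, the loader that works with the origin recognition complex, measured 14.9 and 16.2 FPKM in control and 17.8 and 17.8 FPKM with 1,5-AG. Its treated libraries were nearly equal and lay above both controls (log2 fold change 0.19, SE 0.06, adjusted p = 0.183 by limma and 0.0466 by voom). Cdt1, which brings MCM to the loader, measured 55.4 and 49.8 FPKM in control and 49.4 and 44.1 FPKM with 1,5-AG, groups that almost touched (-0.17, 95% interval -0.37 to 0.03). Orc1, the largest subunit of the origin recognition complex, had 5.17 and 5.47 FPKM against 5.49 and 6.68 FPKM (0.16, -0.09 to 0.41), again with the nearest libraries all but level. With 1 library left out the value ran from 0.04 (without 1,5-AG replicate 2) to 0.28 for Orc1 and from -0.25 to -0.09 for Cdt1. Relative to Gmnn, which encodes geminin, the inhibitor of Cdt1, the level of Cdt1 was 0.984 and 0.797 in control and 0.717 and 0.682 with 1,5-AG. The controls differed from each other by more than the nearer of them differed from the treated libraries (exact permutation p = 0.33, two-sided, the smallest possible). Gmnn itself had 56.4 and 62.5 FPKM against 68.8 and 64.6 FPKM (adjusted p = 0.272 by limma).

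The 6 subunits of the MCM helicase differed little between the groups. They form a ring with 1 copy of each subunit, and their summed level was 484 and 487 FPKM in control and 497 and 497 FPKM with 1,5-AG. Log2 fold changes ran from -0.0051 for Mcm5 to 0.08 for Mcm2, with 95% intervals that lay within a 1.25-fold change for all 6. Mcm2 measured 45.9 and 43.7 FPKM in control and 48.4 and 46.7 FPKM with 1,5-AG (adjusted p = 0.403 by limma). Under quantile normalization Mcm4, Mcm6 and Mcm7 turned negative (-0.0035, -0.036 and -0.013), and under median-ratio scaling Mcm5 turned positive (0.0056).

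FPKM levels of the MCM genes were unequal, and in the same order in every library. From the highest this order was Mcm3, Mcm5, Mcm6, Mcm7, Mcm4 and Mcm2, and the ranges of neighbours over the 4 libraries did not overlap. The closest pair was Mcm3, with 109.0 to 114.1 FPKM, and Mcm5, with 105.1 to 108.4 FPKM. The highest exceeded the lowest 2.39-fold and 2.50-fold in control and 2.34-fold and 2.44-fold with 1,5-AG. This order depends on the merged exon lengths, which are the same for all libraries. They are 6956 bases for Mcm2 and 3589 for Mcm4, and in control 1 Mcm2 had 4839 fragments and Mcm4 3581. Short microRNA genes of the Mcm7 host transcript and genes on the other strand share 3.89% and 8.70% of the Mcm7 exon bases.

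**Figure D4:**
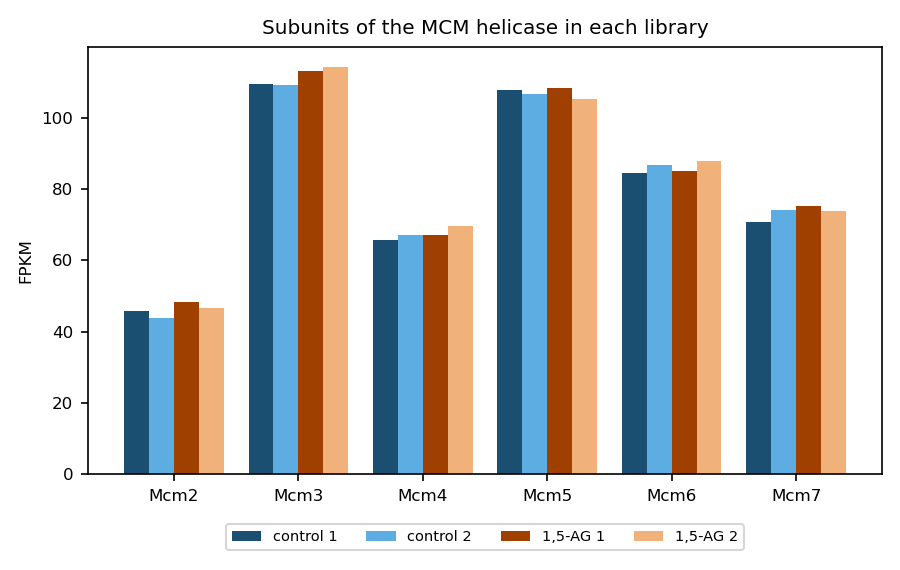
FPKM of Mcm2 to Mcm7 in the 4 libraries (bars, 1 per library). The order of the subunits is the same in all libraries, and the control and 1,5-AG bars of a subunit differ little.

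E2F-type letters were looked for in RefSeq promoter windows of the build GRCm38.p6, 250 bases before to 50 after the annotated start. Windows were found for 29 members, 35 windows in all. Not matched were Ccnd1, Ccnd2, Ccne2, Rb1, Mcm4, Gins1, Gins2 and Pole. The motifs TTTCGCGC, TTTGGCGC, TTTCCCGC and TTTGCCGC, read on both strands, occurred in 13 of the 35 windows (37.1%) and in 2.26% of all 32851 windows. A match of letters is a description and not evidence of binding. Upstream stretches of 160 bases that end at the base before the start are printed for 2 MCM subunits with overlapping copies, for Cdc6 and for the catalytic subunit of polymerase alpha, since these genes carry the letters and their levels are described here. Capitals mark the motif in either orientation, and overlapping copies run together. The stretches are chr8:75109349-75109508 (plus strand) for Mcm5, chr1:128359706-128359865 (minus strand) for Mcm6, chr11:98907991-98908150 (plus strand) for Cdc6 and chrX:93632156-93632315 (minus strand) for Pola1, each read 5′ to 3′ on the strand of its gene.
Mcm5: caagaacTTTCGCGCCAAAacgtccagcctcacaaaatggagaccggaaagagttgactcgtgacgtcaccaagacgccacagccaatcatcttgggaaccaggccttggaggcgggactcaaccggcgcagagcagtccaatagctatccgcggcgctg
Mcm6: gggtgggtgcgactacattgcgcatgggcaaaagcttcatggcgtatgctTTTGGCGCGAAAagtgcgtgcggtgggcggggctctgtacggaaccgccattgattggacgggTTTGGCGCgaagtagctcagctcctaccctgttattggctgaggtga
Cdc6: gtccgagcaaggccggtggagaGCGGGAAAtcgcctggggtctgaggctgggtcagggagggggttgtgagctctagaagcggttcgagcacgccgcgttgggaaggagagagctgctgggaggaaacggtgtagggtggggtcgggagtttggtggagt
Pola1: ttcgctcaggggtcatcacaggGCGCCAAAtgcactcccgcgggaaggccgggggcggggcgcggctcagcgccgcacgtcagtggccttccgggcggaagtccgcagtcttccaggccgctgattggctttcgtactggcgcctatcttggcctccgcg
Members with the letters had log2 fold changes of either sign. Values were positive for Cdc6 (0.19), Orc1 (0.16), Mcm3 (0.05), Rfc3 (0.05), Mcm7 (0.04), Mcm6 (0.01) and Lig1 (0.01). They were negative for E2f2 (-0.17), Cdt1 (-0.17), Cdk2 (-0.10), Pold1 (-0.07), Pola1 (-0.04) and Mcm5 (-0.0051). Among these, only the 95% intervals of Cdc6 and E2f2 left out no change.

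The 3 members that act in turning the loaded ring into a moving helicase were all higher in both treated libraries. Of all tested genes, 24.2% were separated in that direction. Gins1, a subunit of the GINS complex, measured 30.1 and 29.9 FPKM in control and 33.6 and 35.6 FPKM with 1,5-AG, with both treated libraries higher. Its log2 fold change was 0.20 (SE 0.05, 95% interval 0.08 to 0.32, adjusted p = 0.120 by limma). Cdc45 had 16.7 and 17.2 FPKM against 18.5 and 19.6 FPKM (0.16, adjusted p = 0.203 by limma), also without overlap. Gins2 had 10.5 and 9.73 FPKM against 11.0 and 10.8 FPKM (0.10, adjusted p = 0.415 by limma). Gins3 and Gins4, which complete the complex, had -0.08 (95% interval -0.20 to 0.05) and 0.03 (-0.13 to 0.20). For Gins3 both treated libraries lay below both controls (36.8 and 36.8 FPKM against 33.6 and 36.1 FPKM), while the Gins4 groups overlapped. Differences between the subunits were not tested. Of the exon bases of Gins2, 67.3% are also exon of Gse1 on the other strand, and its level is uncertain because the sources used here do not give the strand setting of the counting.

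The 4 polymerase and primase members differed little between the groups. Pole, the catalytic subunit of the leading strand polymerase epsilon, had 12.8 and 13.2 FPKM in control and 12.1 and 11.7 FPKM with 1,5-AG (log2 fold change -0.12, 95% interval -0.24 to 0.0097). Pold1, of the lagging strand polymerase delta, had -0.07 and Pola1, of the polymerase that extends primers, -0.04. Prim1, the primase that makes the RNA primer, had 0.05. All 4 intervals lay within a 1.25-fold change. Values of the tested partner subunits had either sign, and each 95% interval reached to both sides of no change, as for the 4 members. Prim2, the large primase subunit, had 11.0 and 10.5 FPKM in control and 9.56 and 9.98 FPKM with 1,5-AG (-0.12, adjusted p = 0.330 by limma), while Pola2 had 0.05, Pold2 0.09 and Pole4 0.14. Pold3, Pole2 and Pole3 had values between -0.0093 and 0.01.

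Pcna read 213.9 and 218.9 FPKM in control and 208.7 and 206.6 FPKM with 1,5-AG. It was thus marginally lower in both treated libraries (log2 fold change -0.06, 95% interval -0.14 to 0.03, adjusted p = 0.427 by limma). The clamp is opened and loaded by replication factor C, of which Rfc4 had 32.1 and 31.7 FPKM in control and 34.6 and 36.2 FPKM with 1,5-AG (0.15, SE 0.04, adjusted p = 0.179 by limma). Rfc3 had 0.05. The other loader subunits Rfc1, Rfc2 and Rfc5 had 0.00029, -0.07 and 0.0047, so only Rfc4 of the loader reached an unadjusted p under 0.05. For Rfc4, 12.7% of exon bases are shared with Eif4a2 on the opposite strand.

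Of the 4 members that make deoxynucleotides, none reached an unadjusted p of 0.05. Rrm2, the small subunit of ribonucleotide reductase, had 80.8 and 80.5 FPKM in control and 84.7 and 83.2 FPKM with 1,5-AG (log2 fold change 0.06, 95% interval -0.03 to 0.15). Rrm1, the large subunit, had 45.1 and 46.4 FPKM against 44.1 and 45.01 FPKM (-0.04, -0.14 to 0.06). The ratio of Rrm2 to Rrm1 was 1.79 and 1.74 in control and 1.92 and 1.85 with 1,5-AG (exact permutation p = 0.33, two-sided, the smallest possible). Its size depends on merged exon lengths of 2771 bases for Rrm2 and 11012 for Rrm1. In control 1, Rrm2 had 3395 fragments and Rrm1 7536, so which message was the more abundant is uncertain. Tk1, the thymidine salvage kinase, had 0.08 and Tyms, which makes thymidylate de novo, 0.02.

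Of the genes that finish Okazaki fragments, Lig1, the ligase that seals nicks, had 53.7 and 55.1 FPKM in control and 53.0 and 57.0 FPKM with 1,5-AG, an overlap. Its log2 fold change was 0.01, and -0.023 under quantile normalization. Fen1, the nuclease that removes flaps, had 2.80 and 2.70 FPKM against 3.98 and 2.87 FPKM, from 103, 106, 141 and 105 fragments. A single treated library stood apart, and the 95% interval was the widest of all members (-0.13 to 0.58). With 1 library left out its log2 fold change ran from 0.04 to 0.41. Of the Fen1 exon bases, 84.2% are also exon of genes on the opposite strand, mainly Gm10143, so its low level among the fork genes is uncertain. A part of this overlap in the measured level was not tested.

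The further genes of the pathway gave the same picture of small differences. Of 47 tested other fork and origin genes 0 passed limma (1.46% of all tested genes), 33 were positive and 14 negative, and the median log2 fold change was 0.03. At an unadjusted p under 0.05 there were 5, all higher (9.15% of all tested genes), and 1 passed under voom (8.29% of all tested genes). The smallest p-values belonged to Tipin, a component of the fork protection complex (68.6 and 67.2 FPKM against 77.0 and 81.6 FPKM, log2 fold change 0.22, adjusted p = 0.0939 by limma), and to Rpa2, of the single-strand binding protein (33.1 and 33.1 FPKM against 36.5 and 37.2 FPKM, 0.15, adjusted p = 0.143 by limma). The subunits Orc2 to Orc6 had values between 0.09 and 0.13, the same sign as Orc1.

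Of 25 tested other G1/S regulators 0 passed, with 15 positive, 10 negative and a median of 0.01, which turned to -0.0048 without control replicate 2 and to -0.013 without 1,5-AG replicate 2. At an unadjusted p under 0.05 there were 2 (18.2% of all tested genes), and under voom 0 (8.29% of all tested genes). These 2 were Cdk7, the kinase that activates other cyclin-dependent kinases (8.51 and 7.88 FPKM against 9.43 and 9.71 FPKM, log2 fold change 0.20, adjusted p = 0.177 by limma), and Cdkn2c, the Cdk4 and Cdk6 inhibitor p18 (25.2 and 23.7 FPKM against 22.2 and 20.4 FPKM, -0.19, adjusted p = 0.208 by limma). The pocket protein genes related to Rb1 did not share a direction, with 0.01 for Rbl1 and -0.20 for Rbl2. Cdkn1a, which encodes the inhibitor p21, measured 20.6 and 20.7 FPKM in control and 21.1 and 20.7 FPKM with 1,5-AG. Cdkn1c, Cdkn2a and Cdkn2b were not analysed here.

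Of 28 tested other nucleotide synthesis genes 0 passed limma and 3 passed voom (Mthfd2 and Shmt1 higher, Samhd1 lower), where 8.29% of all tested genes passed voom. Despite its name the list also holds enzymes that break nucleotides down, Samhd1 among them. This list had the highest median of the lists compared, 0.08, with 20 positive and 8 negative, and 11 at an unadjusted p under 0.05, 9 higher and 2 lower, against 9.15% and 9.04% of all tested genes. Mthfd2, a mitochondrial enzyme of folate one-carbon metabolism, had 48.3 and 50.9 FPKM in control and 60.3 and 63.2 FPKM with 1,5-AG (log2 fold change 0.31, SE 0.05, adjusted p = 0.0598 by limma). Shmt1, a serine hydroxymethyltransferase that feeds thymidylate synthesis, had 14.9 and 14.5 FPKM against 17.8 and 17.0 FPKM (0.23, adjusted p = 0.109 by limma).

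Most mitosis and G2/M genes had values below 0. Of 30 tested 0 passed limma, 7 were positive and 23 negative, and the median was -0.06 (-0.05 under median-ratio scaling and -0.08 under quantile normalization). In 14 both treated libraries lay below both controls, and in 2 above, where 25.4% and 24.2% of all tested genes did so. At an unadjusted p under 0.05 there were 4, 3 lower and 1 higher (18.2% of all tested genes), and 3 passed under voom, with Kif23 and Cenpf lower and Kif11 higher (8.29% of all tested genes). Kif23, a kinesin of cytokinesis, had 21.1 and 21.5 FPKM against 18.7 and 18.5 FPKM (log2 fold change -0.18, adjusted p = 0.123 by limma), and Kif11, the spindle kinesin Eg5, had 10.1 and 9.57 FPKM against 11.5 and 12.9 FPKM (0.28, adjusted p = 0.130 by limma).

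The mean log2(FPKM + 1) over the 36 replication and G1/S members was 4.806 and 4.802 in control and 4.824 and 4.823 with 1,5-AG, a difference of 0.0197. Over the 30 mitosis genes it was 5.084 and 5.109 in control and 5.045 and 5.053 with 1,5-AG, a difference of -0.0476. Neither difference was tested, since the lists were drawn up with earlier results of these data known.

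**Figure D5:**
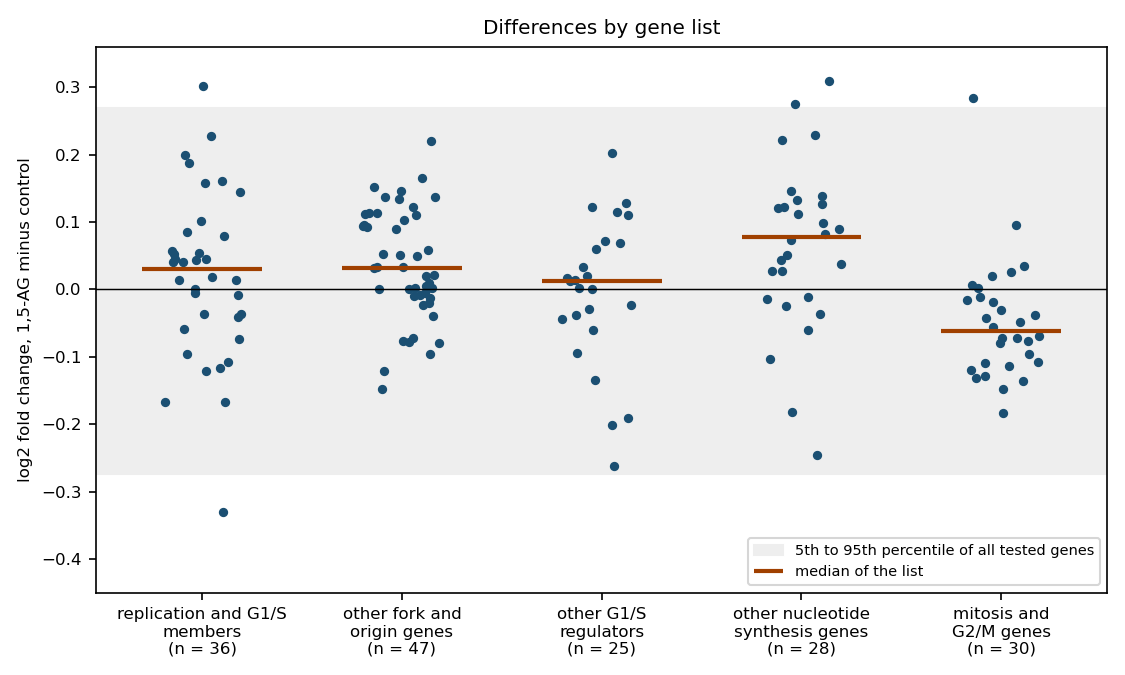
Log2 fold change (1,5-AG minus control) of each tested gene in 5 lists, with the list median as a bar and the 5th to 95th percentile of all tested genes (-0.27 to 0.27) shaded. The member median is 0.03 and the mitosis median -0.06. The shaded range describes single genes and cannot show whether a list median is unusual.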

How the data were processed

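The authors deposited FPKM values, 1 column per library. The submitters' processing notes name HISAT2, HTSeq, Cufflinks and Trimmomatic and the build mm10. For versions, roles, strand setting and annotation release, nothing is given in the sources used here. Among 21523 identifiers 21508 matched GENCODE M21 (mm10), and of rows sharing a symbol the most abundant was used. FPKM multiplied by merged exon length gave whole fragments in all 4 libraries for 99.4% of genes, within 0.02 fragments, and so gave the library size used for scaling. Intervals on these values cover the spread between libraries only.

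Control and 1,5-AG were compared with limma (3.58.1, under R 4.3.3) fitted to log2(FPKM + 1), a scale that understates differences of weak genes, with a variance trend, for the 11120 genes that averaged 1 FPKM or more. P-values were two-sided and adjusted by Benjamini-Hochberg over all tested genes (threshold 0.05). The fit was tested on simulated fragments. Alternatives were pseudocount, filter, scaling, variance trend, replicate block and left-out libraries, and, added after the data were seen, voom and protein coding genes only. The members and lists were chosen with earlier results of these data known. Members past the threshold or with the 5 smallest p-values in either direction, and 8 fixed members, were to be given by library, and from each further list those past it or the 2 with the smallest p. Genes such as Gmnn, Gse1, Cenpf, Samhd1, Gins3, Rbl2 and the further subunits were named after their values were seen.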

Additional observations from a re-analysis of the deposited data

How the results depend on the processing

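The 162 genes past the threshold became 360 at a mean of at least 5 FPKM, 0 without a filter (2628 at an unadjusted p under 0.05), 5 without the variance trend, 310 with the replicate block, 917 with voom and 412 among protein coding genes. Leaving out 1 library gave 2 to 10 (3 and 2 when the first or the second control library was dropped, 2 and 10 when the first or the second treated library was). The members past it, 0, became 1 at a mean of at least 5 FPKM, 1 with the replicate block, 1 among protein coding genes (Ccnd1 each time) and 3 with voom, and stayed at 0 in the other refits. The labels do not say that equal replicate numbers mark a shared culture. Deviations of equally numbered libraries correlated at 0.0124 across genes. The causes were not tested beyond the fewer genes or libraries that some settings impose.

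Of 467 refitted member values 441 kept sign and side of the threshold, 6 gained the call and 20, from 10 members, changed sign, none above 0.0909 in size. Median-ratio scaling gave 0.0023 for Ccnd3 and 0.0056 for Mcm5. Quantile normalization gave -0.018 for Cdk4, -0.0035 for Mcm4, -0.036 for Mcm6, -0.013 for Mcm7 and -0.023 for Lig1. With 1 library left out the ranges were -0.11 to 0.090 for Ccnd3, -0.091 to 0.093 for Cdkn1b, -0.027 to 0.017 for Mcm5, -0.0080 to 0.035 for Mcm6, -0.081 to 0.0080 for Pola1, -0.031 to 0.068 for Tyms and -0.038 to 0.065 for Lig1. The lone library is then assumed to vary like the other group.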

Other observations

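Of the MYC family genes Mycn and Myc, singled out after their values were seen, Mycn was by far the more abundant. Mycn, a transcription factor gene that promotes entry into S phase, measured 343 and 288 FPKM in control and 320 and 297 FPKM with 1,5-AG, a level above that of 98.9% of tested genes. The groups overlapped (log2 fold change -0.03, 95% interval -0.26 to 0.21). Myc had 1 and 2 fragments in the untreated libraries against 0 and 3 in the treated ones, at or under the floor of 3 fragments, so no fold is given. Gm10143 and Gse1, which share exon bases with Fen1 and Gins2 on the opposite strand, had means of 0.452 and 3.54 FPKM.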
